A study of Drosophila melanogaster with 9 samples.

Results

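The cytosolic ribosomal protein genes of the fly and their paralogs were followed across 3 diets. Members were the genes with probe sets of a single platform symbol whose name began with RpL, RpS or RpLP and then a digit. Names came from a gene table by gene identifier, or from the platform symbol where there was no match. Each gene was read from its brightest probe set over the 9 arrays. This gave 41 genes of 11982 named on the array by a single symbol. The gene table used for names lists 92 genes with such symbols, and the other 51, among them RpS6, RpL22 and RpL24, are not analysed here. The flies were Canton-S females aged 10 days, and every array held RNA from a pool of head and thorax. The restricted diet, the normal diet plus resveratrol and the normal diet had 3 biological replicates each, and the comparisons of both treatments with the normal diet share its 3 arrays. Resveratrol is a plant polyphenol, and neither its dose nor the make-up of the diets is given here. Values are log2 probe set summaries made with GCRMA, a method that subtracts a background modelled from probe sequence and normalizes arrays together.

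Ribosomal proteins and ribosomal RNA form the 2 subunits of the ribosome, the large and the small, which read messenger RNA and join amino acids. Production of the proteins takes much of a growing cell's effort and is tied to nutrients through TOR signalling, which acts largely on the translation of their messages. In flies the loss of 1 copy of many of these genes gives the Minute phenotype of slow growth and thin bristles. Several of the proteins have a second gene copy, and some second copies are used mainly in the germline.

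The 41 genes fell into subunit genes, second copies and homologs of assembly factors. There were 30 genes of the subunits themselves, 16 for the body of the large subunit, 3 for its acidic stalk and 11 for the small subunit. A further 8 genes were second copies, of which RpS5b passed the filter for testing. The last 3, RpL24-like, RpL7-like and RpLP0-like, resemble ribosomal proteins by name, but their yeast counterparts Rlp24, Rlp7 and Mrt4 are assembly factors of the large subunit and not part of the finished ribosome. The label of cytosolic ribosomal proteins therefore covers those 3 by symbol only.

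To be tested, a gene needed a value of log2 4 or more on 3 arrays, and 34 of the 41 genes had that on all 9. The 7 that did not were RpL10Aa, RpL22-like, RpL37-2, RpS10a, RpS19b, RpS28a and RpS28-like. RpL22-like, RpS10a and RpS19b are second copies best known from the germline. RpL22-like lay between 2.12 and 2.14 on the 9 arrays, RpS10a between 2.13 and 2.14, and RpS19b at 2.12 on all of them, where the lowest value of the whole table is 2.12. RpL37-2 lay between 2.35 and 2.37, RpS28a between 2.12 and 2.22, RpS28-like between 2.12 and 2.16 and RpL10Aa at 2.12. These 7 probe sets thus gave no level above background on any diet, and no fold is given for them.

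All 9 arrays were fitted together in limma for 8822 features, and a gene passed at a Benjamini-Hochberg adjusted p under 0.05. Over all probe sets the correlation between 2 arrays was 0.994 to 0.998 within a diet and 0.985 to 0.998 between diets. The difference between 3' and 5' control probe sets, a sign of RNA quality, ran over the arrays from 1.06 to 1.39 on the restricted diet, 1.36 to 1.45 with resveratrol and 1.13 to 1.55 on the normal diet for actin. For GAPDH it ran from 0.568 to 0.782 on the restricted diet, 0.710 to 0.764 with resveratrol and 0.624 to 0.685 on the normal diet, so the resveratrol arrays lay above the normal-diet arrays. It was largest for eIF-4a, at 2.57 to 2.89 on the restricted diet, 2.71 to 2.73 with resveratrol and 2.67 to 2.88 on the normal diet. For 18S ribosomal RNA, the RNA of the small subunit, it ran from 0.073 to 0.50 on the restricted diet, 0.67 to 0.94 with resveratrol and 0.66 to 0.91 on the normal diet, so the restricted-diet arrays lay below all the others, and the part of these differences in the results was not tested. Of genes that mark the tissue, 7 of 7 tested neuron genes, 6 of 6 eye genes and 4 of 9 muscle genes fell on the restricted diet, where 12.9% of all features fell. In the same comparison 6 of 10 midgut genes and 4 of 7 fat body genes rose, where 5.27% of all features rose. Fewer cells of a type and less RNA per cell cannot be told apart in such samples.

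The transcripts of the ribosome's own proteins were nearly level across the diets. Their mean signal over the 30 subunit genes was 15.35, 15.32 and 15.33 on the restricted-diet arrays, 15.34, 15.33 and 15.28 on the resveratrol arrays and 15.30, 15.25 and 15.32 on the normal-diet arrays. The ranges of the 3 diets overlapped, with normal-diet replicate 2 lowest and restricted-diet replicate 1 highest. The overlap of the restricted and the normal diet was slight, resting on restricted-diet replicate 2 at 15.3176 and normal-diet replicate 3 at 15.3179. A subunit gene had a median SD within diets of 0.038, against 0.059 for 230 other features with a mean of log2 14 or above and 0.12 for all features. Of the 30 genes, 26 had a mean of log2 15 or above, which 121 of all 8822 features reached. The highest value in the table was 16.39. On some array 3 of the 30 subunit genes came within 0.5 of it, and 0 within 0.1. Whether brightness shortened the changes of these genes was not tested. Among the features of log2 15 or above outside the family, 8 of 95 passed between the restricted and the normal diet. At log2 14 or above 35 of 230 did, and of all features 18.2%. The 95 changes ran from -0.27 to 0.78.

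**Figure D1:**
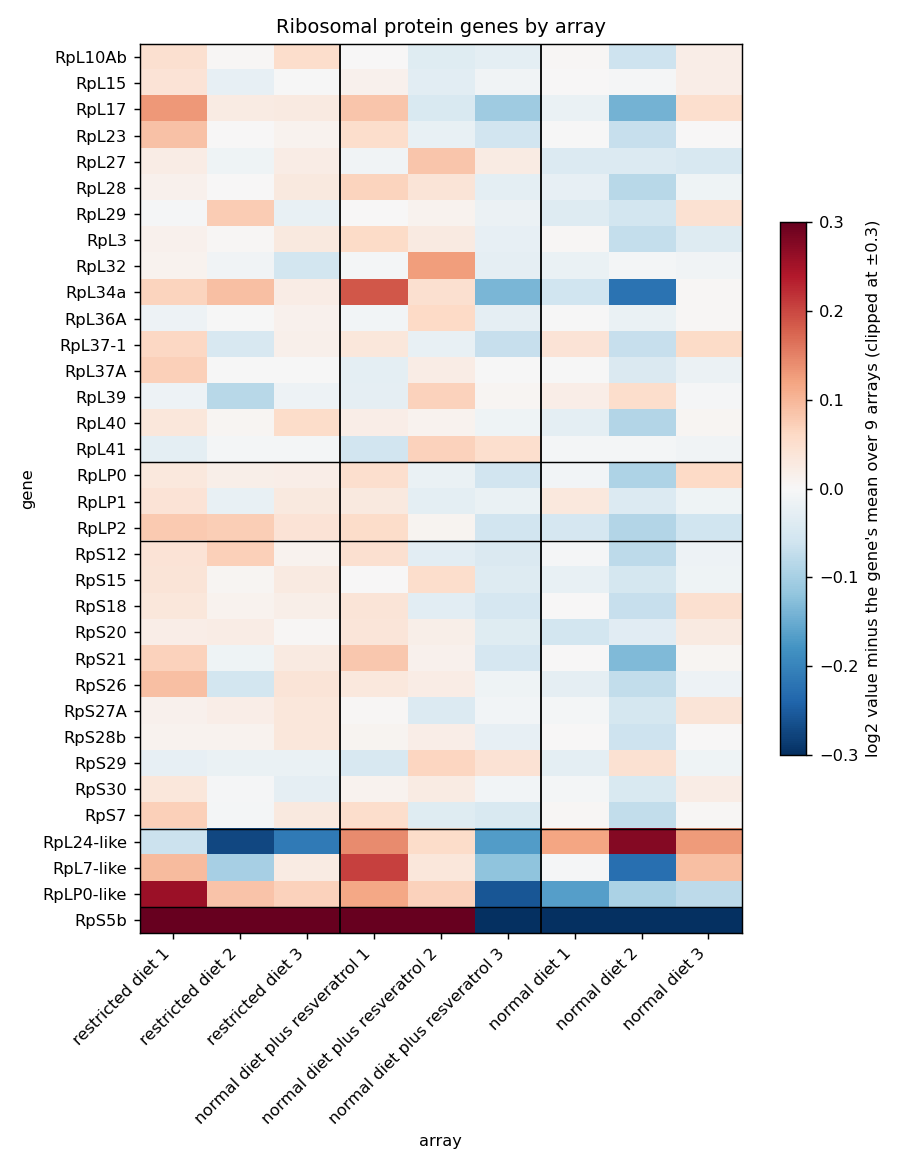
Each cell is the log2 value of a gene on an array minus the gene's mean over the 9 arrays, for the 34 tested genes (rows, grouped as large subunit, stalk, small subunit, assembly factor homologs and RpS5b) and the 9 arrays (columns, by diet), with colours clipped at 0.3. Most subunit rows are pale, RpL34a and RpL17 less so, the column of normal-diet replicate 2 is mostly blue, and RpS5b is beyond the colour range on all arrays.

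On the restricted diet against the normal diet, none of the 30 subunit genes passed, and the largest estimate among them was a change of 0.15. In limma 18.2% of all features passed in this comparison, and 1 of the 34 tested members did, an assembly factor homolog described below. At an unadjusted p under 0.05 there was 1 of the 30 subunit genes, RpLP2, where 37.7% of all features stood at that level. The 95% intervals of the 30 changes reached from -0.18 to 0.37, so the widest bounds correspond to 0.886-fold and 1.29-fold. The SE of a change was 0.044 to 0.093 over these genes, with a median of 0.049, against 0.096 for all features.

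The small estimates leaned to the positive side. Of the 30 subunit genes, 25 had an estimated change above 0 and 5 below, where 41.2% of all features lay above 0, and their median change was 0.041 against -0.052 for all features. The 3 arrays of the restricted diet lay above the 3 of the normal diet for 7 of the 30, 23.3%, where 16.4% of all features did so, and below them for 1, RpL39, where 28.4% did. How many estimates lay above 0 depended on the scaling and on single arrays. It was 24 with each array set to a common median, 28 with arrays set to the median of other bright genes and 21 with quantile normalization, where the median change was 0.011. Without normal-diet replicate 2 it was 20, with a median of 0.024. Single arrays sat low for most of the family: restricted-diet replicate 2 gave its diet's lowest value for 18 of the 30 genes, resveratrol replicate 3 for 21 and normal-diet replicate 2 for 24.

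The proteins of the large subunit followed this pattern. RpL34a, whose paralog RpL34b had no probe set of a single symbol, had the largest estimate of the 30. It stood at 12.90, 12.92 and 12.85 on the restricted diet, 13.02, 12.88 and 12.69 with resveratrol and 12.77, 12.61 and 12.83 on the normal diet. The restricted-diet arrays lay just above the normal-diet arrays, and the resveratrol arrays overlapped both. Its change was 0.15 on the restricted diet (SE 0.093, limma adjusted p = 0.260) and 0.13 with resveratrol (limma adjusted p = 0.738). Leaving out 1 array gave 0.088 to 0.20 on the restricted diet and 0.048 to 0.21 with resveratrol. RpL17, which lines the exit tunnel of the growing chain, stood at 14.67 ± 0.06 on the restricted diet, 14.59 ± 0.10 with resveratrol and 14.57 ± 0.10 on the normal diet (SD, n = 3), with a change of 0.098 on the restricted diet (limma adjusted p = 0.357; 0.045 to 0.14 without 1 array). RpL39, a small protein of the same tunnel, ran the other way, with 15.61, 15.55 and 15.61 on the restricted diet, 15.60, 15.70 and 15.63 with resveratrol and 15.65, 15.68 and 15.63 on the normal diet. Its change of -0.061 (limma adjusted p = 0.390) was the lowest of the 30.

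RpL32, also called rp49, is widely used as the reference gene in fly RT-PCR. It read 15.39, 15.37 and 15.32 on the restricted diet, 15.37, 15.50 and 15.35 with resveratrol and 15.36, 15.37 and 15.37 on the normal diet. The 3 diets overlapped, and the change was -0.0061 on the restricted diet (95% interval -0.13 to 0.12) and 0.043 with resveratrol (95% interval -0.084 to 0.17). RpL10Ab, the protein of the mobile L1 stalk, lay between 15.27 and 15.39 on all 9 arrays, RpL15 between 15.96 and 16.04, and RpL41, the smallest ribosomal protein, between 16.12 and 16.25. RpL37-1, a zinc-binding protein, lay between 14.86 and 14.99. RpL40, made as a fusion with ubiquitin, had 15.27 ± 0.02 on the restricted diet, 15.24 ± 0.02 with resveratrol and 15.20 ± 0.05 on the normal diet (SD, n = 3), and its change of 0.069 on the restricted diet did not pass (limma adjusted p = 0.307).

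The acidic stalk, which recruits the elongation factors, is built on RpLP0 with dimers of RpLP1 and RpLP2. RpLP2 stood at 15.48, 15.48 and 15.45 on the restricted diet, 15.46, 15.41 and 15.35 with resveratrol and 15.36, 15.32 and 15.35 on the normal diet. All restricted-diet arrays lay above all normal-diet arrays, and the resveratrol arrays overlapped both. Its change of 0.13 on the restricted diet (SE 0.048, limma adjusted p = 0.0932) had the smallest p of the 30, and with a variance trend and robust moderation it passed (limma adjusted p = 0.0299). Its partners had smaller estimates, with changes of 0.037 for RpLP0 and 0.024 for RpLP1. RpLP0 lay between 15.39 and 15.54 on all arrays and RpLP1 between 15.84 and 15.92.

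The small subunit proteins stayed close together. Their 11 changes on the restricted diet ran from -0.023 for RpS29 to 0.073 for RpS12, with a median of 0.039. RpS12, known in flies for its part in cell competition among Minute cells, stood at 15.18, 15.21 and 15.15 on the restricted diet, 15.19, 15.11 and 15.09 with resveratrol and 15.13, 15.06 and 15.12 on the normal diet. Its restricted-diet arrays lay above its normal-diet arrays by a margin smaller than the spread of either group (limma adjusted p = 0.314). RpS27A, the other ubiquitin fusion, stood at 15.73 ± 0.01 on the restricted diet, 15.69 ± 0.02 with resveratrol and 15.70 ± 0.05 on the normal diet (SD, n = 3). RpS18 lay between 15.56 and 15.68 and RpS28b, at the exit of the messenger RNA channel, between 15.62 and 15.72 on all arrays. Rack1, a scaffold protein of the small subunit outside the symbol rule, stood at 15.06 ± 0.02 on the restricted diet, 15.05 ± 0.07 with resveratrol and 15.05 ± 0.05 on the normal diet (SD, n = 3).

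**Figure D2:**
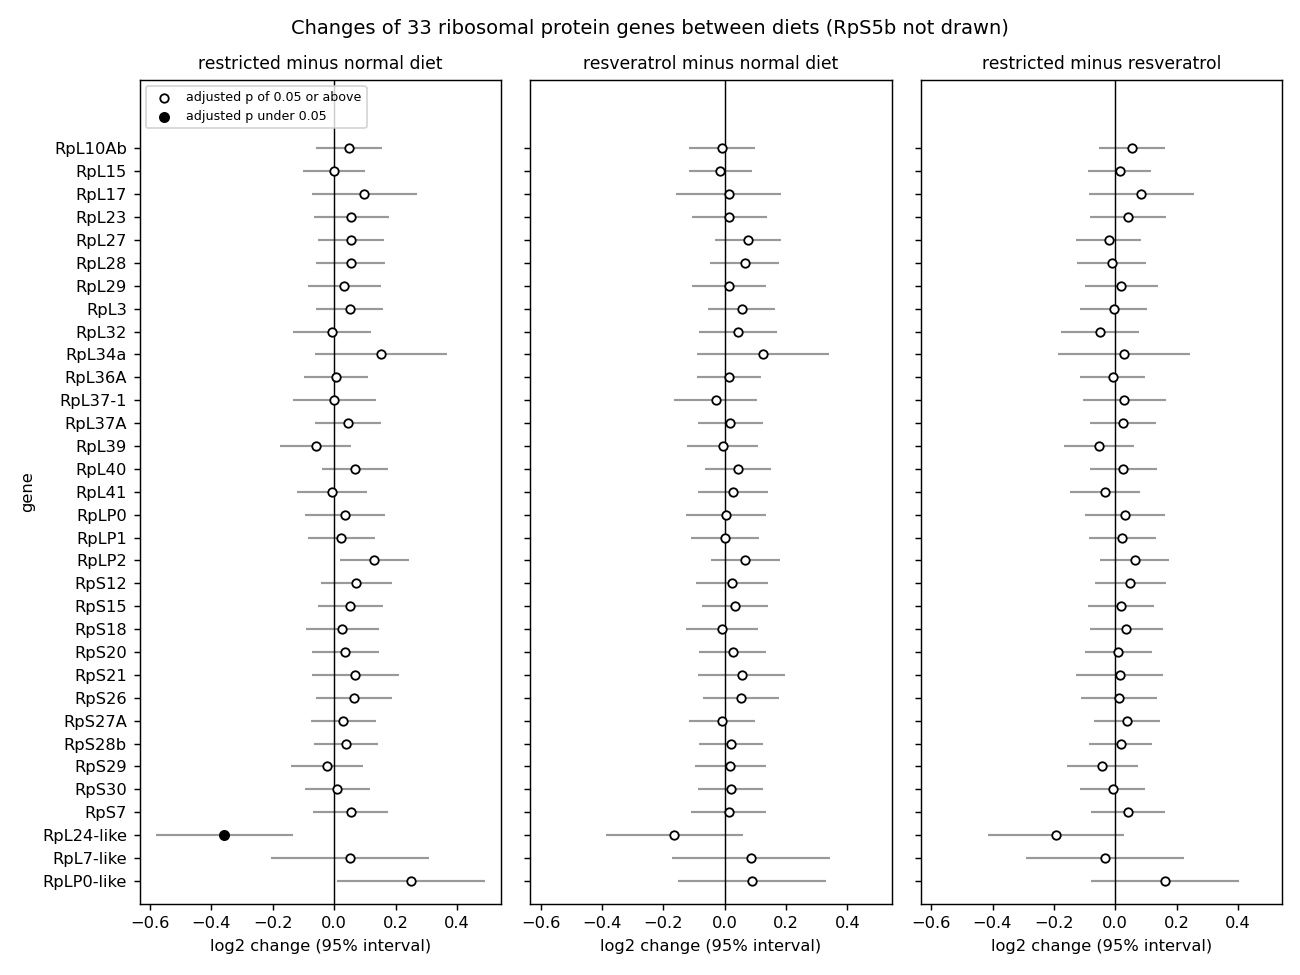
Points are limma's estimated log2 changes and bars their 95% intervals for the tested genes other than RpS5b (rows), in restricted minus normal diet (left), resveratrol minus normal diet (middle) and restricted diet minus resveratrol (right). Filled points have an adjusted p under 0.05. The 30 subunit genes cluster within -0.061 and 0.15 in all panels, and the filled point is RpL24-like on the left at -0.36.

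With resveratrol against the normal diet, no member passed, where 0.227% of all features did in limma. At an unadjusted p under 0.05 there was again no member, against 9.74% of all features. The subunit genes had a median change of 0.019 and ran from -0.029 for RpL37-1 to 0.13 for RpL34a, with 95% intervals from -0.16 to 0.34. Of the 30, 24 had an estimate above 0, where 47.7% of all features did. That sign turned with the scaling: with each array set to a common median, 10 lay above 0 and the median was -0.014. RpL27 and RpS26 had all 3 resveratrol arrays above the 3 normal-diet arrays, 6.67% of the 30 where 6.35% of all features did so. RpL27 stood at 15.09, 15.19 and 15.13 with resveratrol and at 15.06 on all 3 normal-diet arrays, a change of 0.076 (limma adjusted p = 0.670).

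On the restricted diet against resveratrol, no member passed either, where 2.54% of all features did in limma. At an unadjusted p under 0.05 there was no member, against 25.2% of all features. The subunit changes ran from -0.054 for RpL39 to 0.084 for RpL17 with a median of 0.019, and 21 of 30 lay above 0, where 41.9% of all features did. That count was 14 with quantile normalization, 26 with a common median, where the median change was 0.049, 24 with arrays set to other bright genes, and 16 without resveratrol replicate 3, where the median was 0.0048. RpL10Ab and RpS27A were the genes whose restricted-diet arrays all lay above the resveratrol arrays, 6.67% of the 30 against 9.83% of all features.

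RpS5b stood apart from the rest of the family. Its transcript is known to be enriched in the ovary and germline. It read 13.57, 12.69 and 12.90 on the restricted diet, 13.37, 12.63 and 10.21 with resveratrol and 10.95, 10.46 and 11.73 on the normal diet. The restricted-diet arrays lay above all normal-diet arrays, while the resveratrol arrays included both a value among the restricted-diet arrays and the lowest of the 9. Its range of 3.36 compares with at most 0.41 for a subunit gene. The change was 2.01 on the restricted diet, 4.03-fold (SE 0.76, 95% interval 0.25 to 3.76), and did not pass in the fit of all arrays (limma adjusted p = 0.0973). It passed when the 3 resveratrol arrays were left out of the fit (limma adjusted p = 0.0342) and when resveratrol replicate 3 alone was left out (limma adjusted p = 0.0201), and without other single arrays the adjusted p ran from 0.0715 to 0.240. With resveratrol the change was 1.02 (95% interval -0.73 to 2.78, limma adjusted p = 0.738), and between the restricted diet and resveratrol it was 0.98 (95% interval -0.77 to 2.74, limma adjusted p = 0.428). Leaving out 1 array moved these values to between 0.37 and 1.96 for resveratrol minus normal diet, and to between 0.054 and 1.63 for restricted diet minus resveratrol.

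The spread of RpS5b ran alongside that of some germline transcripts. Over the 9 arrays, the named genes with the highest Pearson correlation to it were aub (r = 0.991), Fkbp39 (r = 0.985), CG5757 (r = 0.984), orb (r = 0.983) and CG32625 (r = 0.982), given as a description of arrays that share a diet structure. aub, a piRNA-binding Argonaute protein, and orb, an RNA-binding protein of the oocyte, belong to the list of germline and ovary genes. aub read 8.25, 6.93 and 7.33 on the restricted diet, 7.84, 6.69 and 4.63 with resveratrol and 5.15, 4.89 and 5.96 on the normal diet. As in RpS5b, the first array of the restricted diet was the highest and the third of resveratrol the lowest. Since aub was picked by its correlation with RpS5b on these same arrays, that likeness is no separate evidence. Fkbp39, a nuclear prolyl isomerase, read 11.04, 10.64 and 10.81 on the restricted diet, 11.00, 10.60 and 9.83 with resveratrol and 9.98, 9.80 and 10.13 on the normal diet.

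The mean of the 15 tested germline and ovary genes, of 17 listed, ran from 7.53 to 8.91 on the restricted diet, 6.36 to 8.90 with resveratrol and 6.38 to 7.25 on the normal diet. Of these 15, none rose and tud, a scaffold of germ granules, fell by 0.24 on the restricted diet (limma adjusted p = 0.0450). Of all features 5.27% rose and 12.9% fell, and the tud call was lost without 1 array in 6 of 9 cases. The median change of the list was 1.69, with 12 estimates above 0 and a lowest of -0.35 (grk). At an unadjusted p under 0.05, 5 of the 15 were higher and 2 lower, where 37.7% of all features stood at that level. AGO3, piwi and spn-E, all of the piRNA pathway, had changes of 1.85, 1.88 and 0.96, none of which passed. Of the list's members, bam, a differentiation factor of germ cells, stayed under log2 4 in all diet means, at 3.89 on the restricted diet, 3.70 with resveratrol and 2.78 on the normal diet. The labels describe head and thorax, and the part of germline or ovary tissue in the RpS5b values was not tested.

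**Figure D3:**
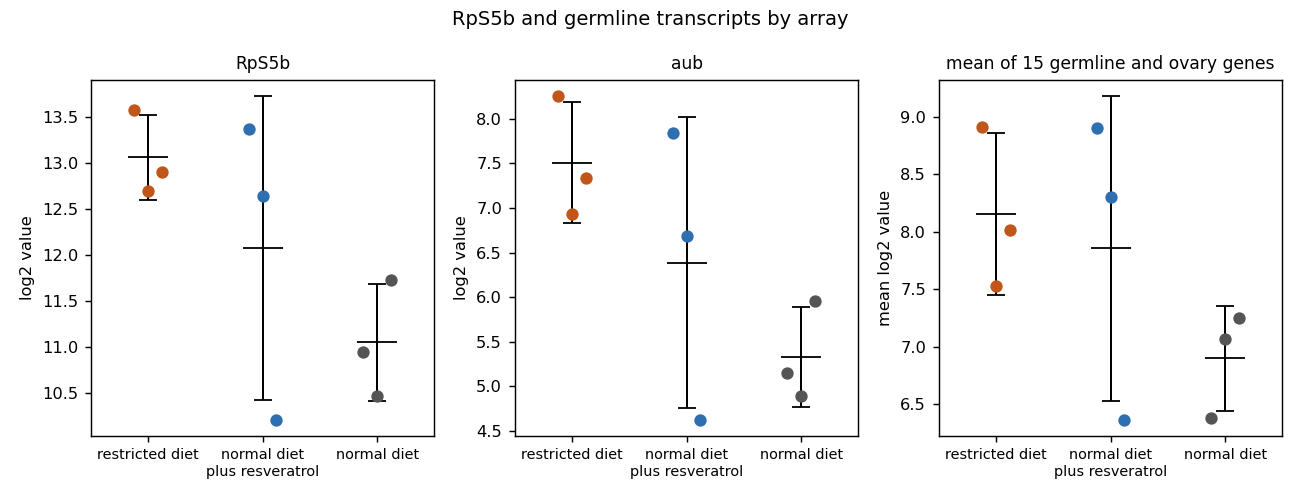
Points are arrays, horizontal bars the mean and whiskers the SD of 3 arrays, for RpS5b (left), the germline gene aub (middle) and the mean of 15 germline and ovary genes (right), on log2 axes that do not start at 0. The gene aub was picked by its correlation with RpS5b on these arrays. In all 3 panels a resveratrol array, replicate 3, lies below the normal-diet arrays while the other resveratrol arrays lie above them. The germline list's normal-diet arrays run from 6.38 to 7.25.

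Among the assembly factor homologs, RpL24-like was the family's member that passed. Its yeast counterpart Rlp24 holds a place on the forming large subunit that RpL24 later takes. It read 13.09, 12.88 and 12.94 on the restricted diet, 13.30, 13.21 and 12.99 with resveratrol and 13.27, 13.43 and 13.28 on the normal diet. The restricted-diet arrays lay below all normal-diet arrays, and the resveratrol arrays overlapped both. It fell by 0.36 on the restricted diet, to 0.780-fold (SE 0.096, 95% interval -0.58 to -0.13, limma adjusted p = 0.0410), where 12.9% of all features fell. The call ended when any of the 6 arrays of these diets was left out, with changes from -0.42 to -0.31 and adjusted p from 0.0621 to 0.123, and also without resveratrol replicate 2 (limma adjusted p = 0.0655). It ended too with quantile normalization, no filter, a replicate block and centring on bright genes (limma adjusted p = 0.0505, 0.105, 0.0599 and 0.0534). With resveratrol the change was -0.16 (95% interval -0.39 to 0.058, limma adjusted p = 0.651), and between the restricted diet and resveratrol it was -0.19 (limma adjusted p = 0.248).

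RpLP0-like had an estimate of the opposite sign. Its yeast counterpart Mrt4 holds the place of the stalk base until RpLP0 takes it. It read 9.88, 9.70 and 9.69 on the restricted diet, 9.73, 9.69 and 9.36 with resveratrol and 9.45, 9.52 and 9.54 on the normal diet. The restricted-diet arrays lay above all normal-diet arrays, while resveratrol replicate 3 was the lowest of the 9. Its change of 0.25 on the restricted diet did not pass (SE 0.10, limma adjusted p = 0.123), but did without resveratrol replicate 3 (limma adjusted p = 0.0442). RpL7-like, whose yeast counterpart Rlp7 acts early in the making of the large subunit, read 11.52 ± 0.10 on the restricted diet, 11.55 ± 0.16 with resveratrol and 11.47 ± 0.16 on the normal diet (SD, n = 3). Its groups overlapped, and its changes were 0.053 on the restricted diet, 0.086 with resveratrol and -0.033 between the restricted diet and resveratrol.

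**Figure D4:**
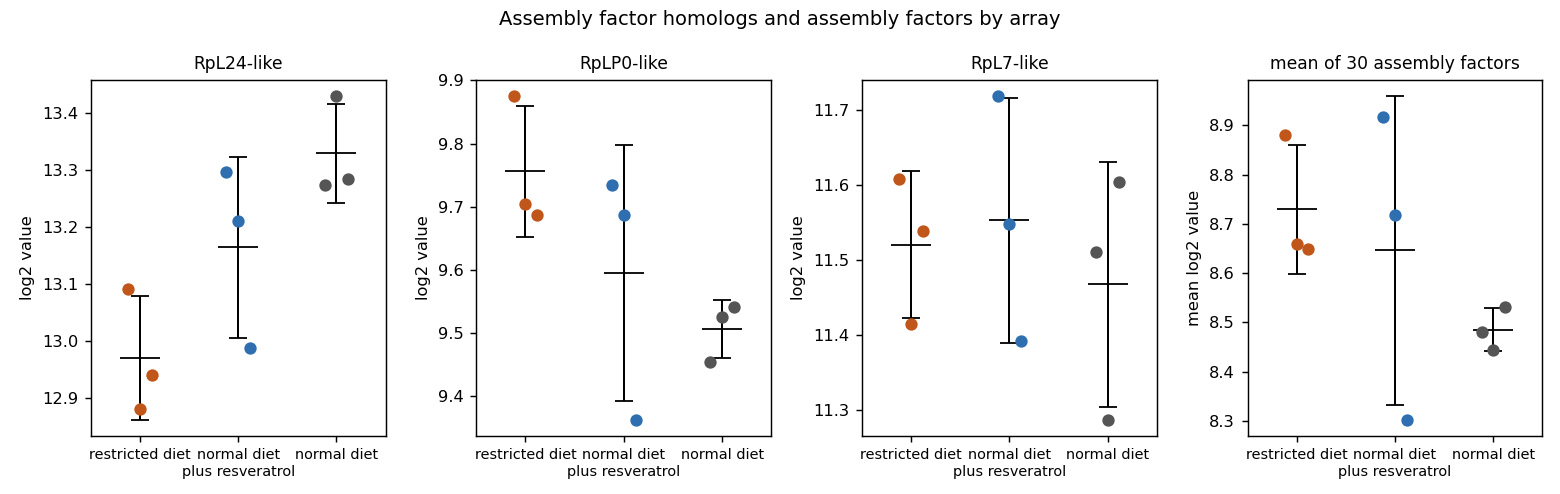
Points are arrays, horizontal bars the mean and whiskers the SD of 3 arrays, for RpL24-like, RpLP0-like, RpL7-like and the mean of 30 ribosome assembly factors, on log2 axes of different length that do not start at 0. RpL24-like is lowest on the restricted diet at 12.97 and RpLP0-like is highest there at 9.76. The mean of the assembly factors is lowest on resveratrol replicate 3 at 8.30.

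Of 14 paralog pairs listed for the fly, 1 had both genes tested, 4 had both named with a second copy at background, 7 had a single copy named and 2 had neither. RpS5b was among the 7, since RpS5a had no probe set of a single symbol, so that pair could not be compared. For the pairs L10A, L37 and S28, and for RpS28-like with RpS28b, the main copy lay between 14.86 and 15.72 on every array and the other under log2 4, so the copies' changes could not be set against each other. For RpLP0-like and RpLP0 the difference within each array was compared between diets, since the levels of different probe sets cannot be compared. The change of RpLP0-like exceeded that of RpLP0 by 0.21 on the restricted diet (exact permutation test, two-sided, p = 0.1, adjusted p = 0.3 over 3 comparisons), and 0.1 is the smallest p that 3 arrays against 3 can give. With resveratrol it exceeded it by 0.084 (exact permutation p = 0.4, adjusted p = 0.5) and between the restricted diet and resveratrol by 0.13 (exact permutation p = 0.5, adjusted p = 0.5).

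Where a gene had more than 1 probe set above background, the probe sets did not always move alike. These comparisons were chosen after their values were seen. RpS30, made as a fusion with a ubiquitin-like protein, had a second probe set that read 7.73, 7.75 and 7.70 on the restricted diet, 7.74, 7.38 and 7.19 with resveratrol and 6.81, 7.08 and 7.46 on the normal diet. The restricted-diet arrays lay above all normal-diet arrays, and with this probe set standing for the gene the change was 0.61 (95% interval 0.18 to 1.03, limma adjusted p = 0.0559), against 0.011 for the brightest. RpL3, at the peptidyl transferase centre, had a second probe set that read 7.98, 7.82 and 7.83 on the restricted diet, 8.42, 8.36 and 8.17 with resveratrol and 8.02, 7.75 and 7.88 on the normal diet. There the resveratrol arrays lay above all the others. The change with resveratrol was 0.43 (95% interval 0.22 to 0.65, limma adjusted p = 0.163), against 0.056 for the brightest, and between the restricted diet and resveratrol it was -0.44 (95% interval -0.66 to -0.22, limma adjusted p = 0.0557). RpS29 had 2 bright probe sets, with changes of -0.023 and 0.073 on the restricted diet. Outside the symbol rule, a probe set named for both euc and RpLP0 read 9.73, 9.79 and 9.95 on the restricted diet, 9.66, 10.22 and 10.38 with resveratrol and 10.24, 10.12 and 10.38 on the normal diet. Its restricted-diet arrays lay below all normal-diet arrays, as for 28.4% of all features, unlike the probe set used for RpLP0. Another, named for snoRNA:Or-CD12 and RpL28, overlapped between these diets. Which transcript each probe set detects was not analysed here.

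**Figure D5:**
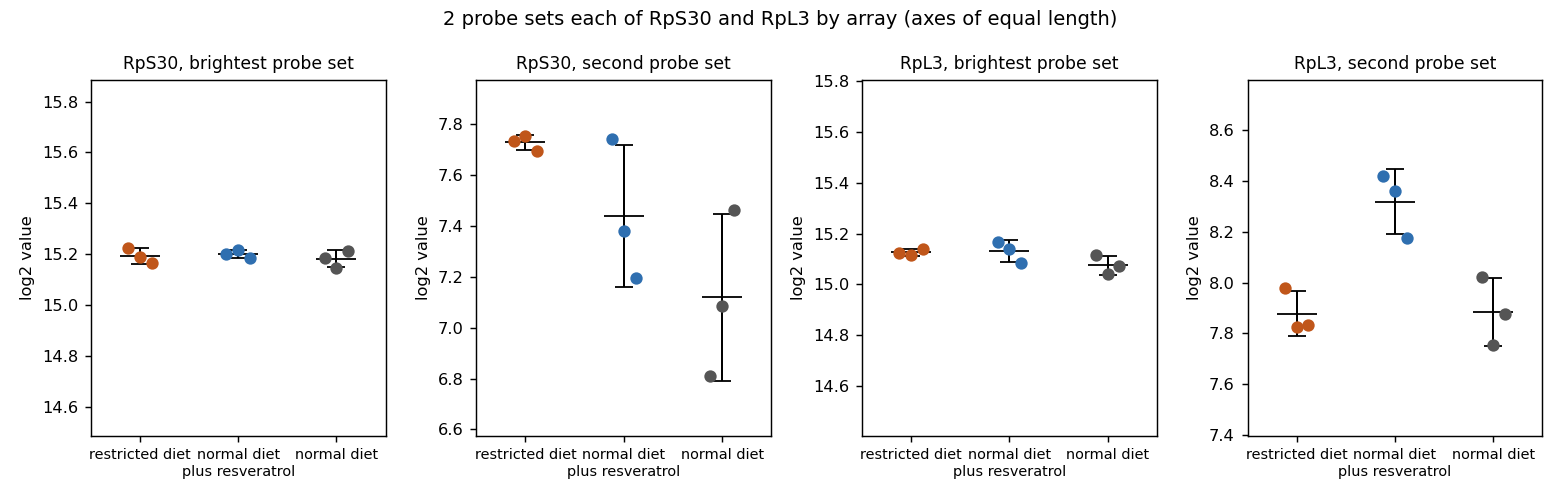
Points are arrays, horizontal bars the mean and whiskers the SD of 3 arrays, for the brightest and the second probe set of RpS30 and of RpL3, on log2 axes of equal length that do not start at 0. The brightest probe sets are level, while the second of RpS30 is lowest on the normal diet at 7.12 and the second of RpL3 is highest with resveratrol at 8.32.

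Other genes of ribosome production and use were read from lists. Of 30 ribosome assembly factors, none rose or fell on the restricted diet, where 18.2% of all features passed. Their median change was 0.25 with 27 estimates above 0, against a median of -0.052 and 41.2% above 0 for all features. In limma 4 of the 30, all higher, had an unadjusted p under 0.05, where 37.7% of all features did. The nucleolar proteins mbm and Surf6 had changes of 0.59 and 0.58, Rrp46, an exosome subunit, of 0.40, and Nnp-1 of 0.34 (limma adjusted p from 0.0643 to 0.125). Fib, the nucleolar methyltransferase fibrillarin, stood at 10.23 ± 0.25 on the restricted diet, 10.03 ± 0.47 with resveratrol and 9.70 ± 0.14 on the normal diet (SD, n = 3). The list's mean over genes was 8.88, 8.66 and 8.65 on the restricted diet, 8.92, 8.72 and 8.30 with resveratrol and 8.48, 8.44 and 8.53 on the normal diet. Its lowest array, resveratrol replicate 3, was also the lowest for RpS5b and the germline list. With resveratrol the median change of the list was 0.15 and none passed. In limma 1 of them, Nop17l, had an unadjusted p under 0.05, where 9.74% of all features did. Between the restricted diet and resveratrol 1 passed, again Nop17l, lower by 0.32, where 2.54% of all features passed. That call was lost in 8 of 9 cases when 1 array was left out. Nop17l had a mean of 10.15 on the restricted diet, 10.47 with resveratrol and 10.14 on the normal diet, so the resveratrol arrays stood apart in both comparisons.

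Of 10 tested genes of RNA polymerases I and III and their factors, which transcribe ribosomal and transfer RNA, none passed in limma in any of the 3 comparisons. On the restricted diet 1, Polr1E, had an unadjusted p under 0.05, where 37.7% of all features did. With resveratrol, and between the restricted diet and resveratrol, 0 did, where 9.74% and 25.2% of all features did. Polr1A, the largest subunit of polymerase I, had a change of 0.43 on the restricted diet, Polr1F of 0.36 and Polr1E of 0.29, and Maf1, a repressor of polymerase III, of -0.16. Leaving out 1 array gave 0.25 to 0.54 for Polr1A and -0.21 to -0.098 for Maf1. Of 23 initiation factors, eIF4B, a cofactor of the helicase eIF4A, fell by 0.16 on the restricted diet (limma adjusted p = 0.0473) and none rose, with a median of 0.062, where 12.9% of all features fell. eIF3i, eIF4A and eIF3k had changes of 0.11, -0.092 and -0.11, short of the threshold, and leaving out 1 array gave 0.067 to 0.15 for eIF3i and -0.15 to -0.070 for eIF3k. The eIF4B call was lost whichever of the 9 arrays was left out. Of 5 elongation factors, eEF1alpha2, a form of the factor that brings transfer RNA to the ribosome, fell by 0.29 on the restricted diet (limma adjusted p = 0.0193). On that diet 12.9% of all features fell, and the eEF1alpha2 call was lost in 3 of 9 cases without 1 array. eEF1delta had a change of 0.22 (limma adjusted p = 0.0515), eEF1gamma of 0.036 and eEFSec, for selenocysteine, of -0.051. With resveratrol none of the initiation or elongation factors passed in limma. At an unadjusted p under 0.05 there were 1 of the 23 and 0 of the 5, where 9.74% of all features stood.

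Of 8 kinases and regulators of translation and growth, S6kII and Mnt fell on the restricted diet by 0.31 and 0.33 (limma adjusted p = 0.0184 and 0.0261), where 12.9% of all features fell. S6kII is the fly RSK kinase and Mnt the antagonist of Myc. larp, which binds messages of ribosomal proteins in other animals, had a change of -0.22 and Trf2, a promoter factor that binds at ribosomal protein genes in flies, of -0.23, and neither passed (limma adjusted p = 0.102 and 0.133; Trf2 -0.29 to -0.14 without 1 array). S6k, the kinase that phosphorylates RpS6, stood at 11.66 ± 0.11, 11.74 ± 0.05 and 11.79 ± 0.05 on the restricted diet, with resveratrol and on the normal diet (SD, n = 3; limma adjusted p = 0.225 for restricted minus normal diet). Between the restricted diet and resveratrol S6kII fell by 0.33 (limma adjusted p = 0.0454), where 2.54% of all features passed. Leaving out 1 array ended that call in 8 of 9 cases, and the calls of S6kII and Mnt against the normal diet in 4 each.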

How the data were processed

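The authors deposited 1 log2 value for each probe set and array, made with GCRMA per the submitters' processing notes, which name no version. Values between 2.12 and 16.39 set the scale as log2. Of 18769 probe sets that were not controls, 13647 named 1 gene, and 13544 of these were matched by gene identifier to the gene table of Release 6 plus ISO1 MT. Probe sets with at least 3 of 9 arrays at log2 4 were kept, and the brightest stood for a gene, leaving 8822 features. They were fitted in limma 3.58.1 (R 4.3.3) with a mean per diet, 6 residual and 1.81 prior degrees of freedom, and the fit was tested on simulated data. Permutation tests used SciPy 1.17.1. The precision is limited by the number of arrays. Each replicate is a pool of flies, so p-values measure the spread between pools.

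The members and gene lists were chosen with earlier results of these data known. Rrp1, pes, bel and nom were taken off the assembly factor list, and Fs(2)Ket off the germline list, after their values were seen, because these symbols name other kinds of gene in the fly. Members were named where they passed, were among the 5 largest estimates each way in a comparison, belonged to a paralog pair, or were stalk, ubiquitin fusion or assembly factor homolog genes. Up to 4 genes of each list, those with the smallest p on the restricted diet, and the 5 genes most like RpS5b were also named. RpS12, RpS30, RpL3, RpS26, bam, grk, Fib, S6k and Nop17l were named outside that rule, after their values were seen. Same-numbered arrays correlated at -0.33 to 0.40 in their deviations from the diet means, so replicate numbers were not taken as pairs. Alternatives covered scaling, filter, probe set, variance model, arrays in the fit, replicate block, threshold and single arrays.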

Additional observations from a re-analysis of the deposited data

How the results depend on the processing

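With 3 arrays a diet, the SE of a change limits what can be seen. Whether brightness shortened the changes of the ribosomal protein genes was not tested. The number of genes called among 8822 depended on the settings. Restricted minus normal diet gave 1604, and 598 with no filter, 931 with a replicate block and 2747 at an adjusted p under 0.1. Resveratrol minus normal diet gave 20, and 10 with no filter, 47 with variance trend and robust moderation, 4 with only those diets fitted, 1 with a replicate block and 61 at an adjusted p under 0.1. Restricted diet minus resveratrol gave 224, and 11 with median centring, 36 with quantile normalization, 8 with no filter, 339 with trend and robust moderation, 1 with only those diets fitted, 0 with a replicate block, 64 when arrays were centred on bright genes outside the family, an alternative chosen after seeing the data, and 884 at an adjusted p under 0.1. Replicate numbers share only a number here, so the block has no design basis.

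Members called higher on the restricted diet numbered 0, and 1 (RpLP2) with trend and robust moderation, 1 (RpS5b) with only the 2 diets fitted and 2 at an adjusted p under 0.1. Members called lower numbered 1, RpL24-like, and 0 with quantile normalization, no filter, a replicate block or bright centring (limma adjusted p = 0.0505, 0.105, 0.0599 and 0.0534). The median change of the 34 members was 0.013 on the restricted diet with quantile normalization, and -0.013 with resveratrol under median centring. The cause of these shifts was not tested.

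Small estimates that did not pass often turned sign. Of the 30 subunit genes, median centring turned 1 on the restricted diet, 14 with resveratrol and 5 between the restricted diet and resveratrol, quantile normalization 6, 6 and 7, and bright centring 3, 0 and 3. Among the changes printed above, RpL32 turned on the restricted diet (0.0033 with bright centring). So did the brightest probe set of RpS30 (-0.013 with quantile normalization). RpS29 turned there too (0.073 with the lowest probe set, 0.025 with the mean of probe sets). Between the restricted diet and resveratrol, RpL3 turned when read from its brightest probe set, with a main change of -0.0048. It became 0.025 with median centring and 0.0044 with bright centring. The change of -0.44 for the second probe set of RpL3 was not put through these scalings.

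Leaving out 1 array gave 332 to 1671 genes for restricted minus normal diet, 2 to 9 for resveratrol minus normal diet and 0 to 290 for restricted diet minus resveratrol. Members called higher on the restricted diet ran from 0 to 2 and lower from 0 to 1, and stayed at 0 in the other comparisons. The members' median ran from 0.024 to 0.061, 0.0075 to 0.038 and 0.0048 to 0.032 in those comparisons, and the difference between RpLP0-like and RpLP0 from 0.16 to 0.26, 0.033 to 0.18 and 0.037 to 0.18. Without normal-diet replicate 2, 5 of the 30 subunit genes turned sign on the restricted diet and 8 with resveratrol. Of 56 gene changes followed here, each read from the gene's brightest probe set, 32 moved by over 1.5 times without 1 array. None of these was among the 8 that passed. The changes printed for grk and for the second probe sets of RpS30, RpL3 and RpS29 were not followed. Among those 56, the ranges that crossed 0 were, on the restricted diet, -0.020 to 0.013 for RpL32, -0.037 to 0.12 for RpL7-like, -0.0029 to 0.073 for RpLP0, -0.0074 to 0.026 for RpS30, -0.0058 to 0.060 for eEF1gamma and -0.16 to 0.091 for eEFSec. With resveratrol they were -0.0042 to 0.072 for RpL32 and -0.0047 to 0.17 for RpL7-like. Between the restricted diet and resveratrol they were -0.027 to 0.014 for the brightest probe set of RpL3 and -0.11 to 0.050 for RpL7-like.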
